A study of Caenorhabditis elegans with 2 samples.

Results

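Of the 1522 nuclear peaks of tagged DPL-1 in the authors' reproducible peak list, 511 lay at the promoter of a single, isolated protein-coding gene, and they marked 500 genes. A peak entered this set when its summit fell between 1000 bp upstream and 500 bp downstream of a transcript start of exactly 1 protein-coding gene. In addition, no protein-coding gene on the same strand could start within 500 bp of the end of that gene, so that the peak did not sit at the head of an operon-like run. The choice used only the position of the summit and the annotation, not the signal. Among the remaining nuclear peaks, 218 lay at a single gene that another gene followed on its strand within 500 bp, 557 lay in the windows of several genes, and 236 lay outside promoter windows. The whole list, with peaks on the mitochondrial genome, held 1546 peaks. Genes in operons share one promoter and divergent genes can share one peak, so at isolated genes a bound promoter can be read against 1 gene, as far as the annotation goes.

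DPL-1 is the worm DP protein. DP proteins bind DNA as partners of E2F factors (EFL-1 in the worm germ line), and this pair belongs to the DREAM complex, which holds genes of the cell cycle and of the germ line in check. Within DREAM, E2F-type DNA is read by the E2F and DP pair, and a second sequence, the cell cycle homology region (CHR), is read by the subunit LIN-54. In the worm germ line EFL-1 and DPL-1 are also known as activators of genes for oocyte maturation and early embryogenesis.

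The study had 1 group of 2 biological replicates and no comparison group among the samples analysed here. Both were whole young adults of the strain YL390, with males and females pooled and the age not known. Per the labels, these worms carried unc119(ed3) on chromosome III and the transgene vrIs48, in which pPIE-1, the promoter of the germline gene pie-1, drives DPL-1 tagged with GFP and FLAG. The transgene also carries the DPL-1 3'UTR and unc-119 (+). The labels name dpl-1 in the antibody field and describe the target as the eGFP-tagged protein. Where in the body the tagged protein was present, and at what level beside native DPL-1, was not measured, so the peaks describe the tagged protein under pie-1 control. Each list gave, per peak, a signal that the authors' peak caller assigned against a control, and here it only ranks peaks within a list. Depth is unknown because the lists hold no counts, and with 1 group no test between groups was possible, so shares are given with exact binomial (Clopper-Pearson) 95% intervals that treat peaks or genes as independent and cover counting error only.

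The E2F-type letters searched for had 4 forms, of which TTCCCGC was one, TTCGCGC another, TTGCCGC the third and TTGGCGC the fourth. The CHR-type letters were TTTGAA or else TTCGAA. All were searched on both strands, centred within 100 bp of a summit. The E2F-type and CHR-type letters cannot overlap each other, whereas matches of the E2F-type on opposite strands can. Next are the sites of 7 members of high signal that had an E2F-type match upstream of every annotated start of the gene. They are shown because they are letters under some of the strongest peaks, on the strand of the gene, 5′ to 3′, from the RefSeq copy of WBcel235 (the assembly ce11), with E2F-type matches in capitals. At nasp-2 a pair of matches on opposite strands overlap.
nasp-2, chrV:13312441-13312483, minus strand: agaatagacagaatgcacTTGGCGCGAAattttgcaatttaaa
hcp-1, chrV:6593875-6593917, plus strand: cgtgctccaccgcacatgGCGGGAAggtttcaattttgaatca
cgh-1, chrIII:7498620-7498662, minus strand: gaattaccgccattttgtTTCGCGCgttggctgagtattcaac
pcn-1, chrIV:4049636-4049678, minus strand: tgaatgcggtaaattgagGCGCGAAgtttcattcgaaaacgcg
hcp-3, chrIII:9617075-9617117, minus strand: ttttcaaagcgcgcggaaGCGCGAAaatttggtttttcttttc
fbxl-2, chrIII:4757204-4757246, plus strand: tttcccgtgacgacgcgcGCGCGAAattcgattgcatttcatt
cpg-1, chrIII:4489158-4489200, plus strand: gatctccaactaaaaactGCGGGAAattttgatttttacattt

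In some members a CHR-type match stood close to the E2F-type match. The most frequent spacings were 0, 1 and 9 bases with the CHR-type match first, at 47 of the 511 members (9.20%). The next 6 sites show members of high signal, upstream of the gene's starts and outside annotated exons, at the distances of 1 and of 9 bases between the matches, with both matches in capitals. These distances were chosen after the values were seen. In cyk-7 and F35C5.12 there is 1 base between the matches, and in hcp-1, mcm-2, E02C12.12 and rpn-11 there are 9. Read in the direction in which the E2F-type letters begin with TT, the CHR-type letters come first in all 6. The sites were taken from members with that order.
cyk-7, chrIII:7795533-7795562, minus strand: aaattaaaTTTGAAgTTCGCGCgttttttc
F35C5.12, chrII:12914857-12914886, minus strand: tcaattccGCGCGAAaTTCAAAttaaatgg
hcp-1, chrV:6593885-6593922, plus strand: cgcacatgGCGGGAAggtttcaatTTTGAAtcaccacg
mcm-2, chrII:12006821-12006858, minus strand: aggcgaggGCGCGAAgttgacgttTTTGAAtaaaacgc
E02C12.12, chrV:9382683-9382720, minus strand: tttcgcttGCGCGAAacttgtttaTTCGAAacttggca
rpn-11, chrII:4044597-4044634, minus strand: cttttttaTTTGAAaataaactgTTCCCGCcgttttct

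Some of the strongest members had neither E2F-type letters nor a cell cycle role. The letters around 3 such summits are given as a contrast, with the summit base in capitals.
rpl-3, chrIII:3867549-3867591, plus strand: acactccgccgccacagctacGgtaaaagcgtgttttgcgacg
rpl-35, chrIII:7854655-7854697, plus strand: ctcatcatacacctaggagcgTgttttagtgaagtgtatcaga
cox-5A, chrIII:12905187-12905229, plus strand: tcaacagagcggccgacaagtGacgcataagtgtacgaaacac

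The strongest isolated promoters belonged to housekeeping genes, to chromosome and replication genes, and to genes of the oocyte. The peak of rpl-3, which encodes a protein of the large ribosomal subunit, had a signal of 132 in replicate 1 and 571 in replicate 2, where it ranked 2 and 1 of 30000 listed peaks. The peak of cdc-48.1, an AAA ATPase that extracts ubiquitinated proteins, had 125 and 470.5 in replicates 1 and 2 (ranks 4 and 3). That of rpl-35, another protein of the large ribosomal subunit, had 115 and 326 (ranks 5 and 6). In both replicates these 3 peaks stood above all other members. Their pooled signals were 700.1, 596 and 436, and the next member, cox-5A, a subunit of the last respiratory complex, had 271. The cox-5A peak was less even, with a signal of 52.5 at rank 54 in replicate 1 and 222 at rank 7 in replicate 2.

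A group of chromosome genes followed. The histone chaperone relative nasp-2 had a pooled signal of 270.5 (rank 7 in replicate 1 and 19 in replicate 2), and hcp-1, a kinetochore protein, had 263 (ranks 17 and 14). The sliding clamp of replication forks, pcn-1, ranked 21 in each replicate with a pooled signal of 244, and hcp-3, the centromeric histone, had 242 (ranks 11 and 29). The replicative helicase subunit mcm-2 had 219, with ranks 8 and 59. All 5 of these peaks were therefore within the strongest 59 of both replicates. The chromatin remodelling ATPase isw-1 had 214 (ranks 23 and 46), and lin-9, the DREAM subunit, had 195 (ranks 32 and 55).

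Among the other members in the first 25 by signal, several act in the oocyte or the early embryo. They were cgh-1, a germline RNA helicase (252), cpg-1, an eggshell proteoglycan (229), rme-2, the yolk receptor (176), and par-3, a cortical polarity protein (172). Protein turnover was represented by rpn-11, the deubiquitinating subunit of the proteasome lid (177), and by the F-box genes fbxl-2 (237) and skpt-1 (209). The mitochondrial import receptor tomm-20 (211), the pyruvate dehydrogenase kinase pdhk-2 (183) and vig-1, a component of the RNA interference complex (197), were also in this range. The last 4 of the 25 were E02C12.12 (215), Y39B6A.43 (196), F43G6.16 (194) and T21B10.3 (168), to which no role is given here. Of the 25, the 6 without an E2F-type match near the summit were rpl-3, rpl-35, cox-5A, tomm-20, vig-1 and Y39B6A.43. Of these, tomm-20, vig-1 and Y39B6A.43 ranked between 147 and 212 in replicate 1 but between 23 and 35 in replicate 2, whereas rpl-3 and rpl-35 were high in both.

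Over all 511 members the pooled signal ran from 23.7 to 700.1, with a median of 42.8 and quartiles of 30.6 and 75.8. Its median over all nuclear peaks was 41.6, so the members were not a strong or weak subset. Their median place in the signal order was 733, against 762 over all 1522 nuclear peaks. Peaks in windows of several genes had a median signal of 47.0, peaks at genes heading a run 42.1 and peaks outside promoters 31.7. The 5 members of lowest signal, between 23.7 and 24, were slrp-1, C06H2.7, T06D4.1, eor-2 and vha-13, a subunit of the proton pump of vesicles.

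Most members had a peak in each replicate, and those missing were mainly missing from replicate 1. The authors had filtered the list for agreement between these 2 replicates, so a high share of matches was partly set in advance. Of the 511 members, 463 (90.6%, interval 87.7 to 93.0%) had a summit within 100 bp in both replicate lists, against 89.9% of all nuclear peaks. In replicate 2, 509 were matched (99.6%), and in replicate 1, 465 (91.0%). The 2 members without a match in replicate 2 were imb-2, an importin, and tyms-1, thymidylate synthase. The 46 without one in replicate 1 reached high in the list with a peak of unc-119 (153), app-1 (97.3), lin-5, a spindle positioning protein (83.3), dbt-1 (74.5), exos-2, an exosome subunit (66.3), and brc-1, the worm BRCA1 (64.7). No member lacked a match in both. By a stricter measure, 300 members (58.7%, interval 54.3 to 63.0%) were matched by one of the top 1546 peaks of both replicate lists, against 58.9% of all nuclear peaks. Both shares were close to their background, so isolated promoters were found in the replicates about as often as nuclear peaks in general. That background includes the members. By the stricter measure the share was 66.8% in windows of several genes, 61.5% at genes heading a run and 38.6% outside promoters.

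Across the 463 members matched in both, the replicate signals correlated with a Spearman rho of 0.577, against 0.546 over the 1369 matched nuclear peaks. These points are peaks that share their 2 libraries, and the value is a description. It was 0.275 over the 196 matched peaks outside promoters. The median signal of members was 15 in replicate 1 and 29.8 in replicate 2. The 5 members whose ranks differed most were all low in replicate 1. E01B7.2 had rank 29168 in replicate 1 and 218 in replicate 2, and Y71H2AM.3 had 19861 and 431. The others were serp-1.1 (26522 and 762), stn-2 (26786 and 1330) and F47D12.9 (26514 and 1171).

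**Figure D1:**
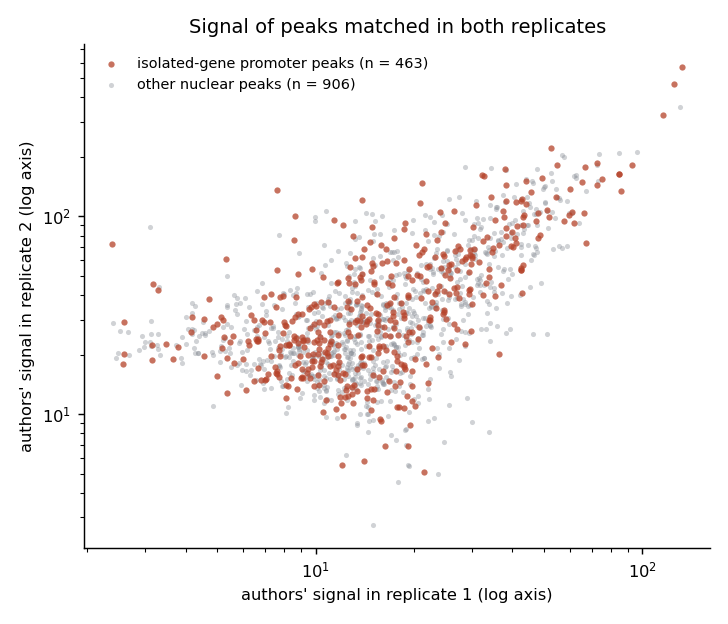
Authors' signal of each peak in replicate 1 (x, log axis) and replicate 2 (y, log axis) for the 463 isolated-gene promoter peaks matched in both replicates (red) and the other 906 matched nuclear peaks (grey). The red points lie among the grey ones, with rpl-3, cdc-48.1 and rpl-35 at the upper right and a tail of peaks that are weak in replicate 1 on the left.

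Peaks at genes with a direct link to the transgene need to be read apart. The unc-119 gene, which the transgene carries as a rescue copy, held 2 member peaks with summits in coding exons, at pooled signals of 153 and 57.5. In replicate 2 they had signals of 150.5 and 63.3 (ranks 45 and 283), and in replicate 1 neither had a match. The stronger was 680 bp wide, against a member median of 290.0 bp. The promoter of pie-1, which drives the tagged protein, held 3 member peaks. Its strongest (157) ranked 183 in replicate 1 and 68 in replicate 2, had an E2F-type match, and lay 138 bp upstream of the start. The other 2 pie-1 peaks had 30.6 and 26.7. The peak of dpl-1 itself, 176 bp upstream of its start, had 30.4 (signals of 14.6 and 19.5 in replicates 1 and 2) and no E2F-type match. The part of transgene DNA in the signal at these loci was not tested, and without their 6 peaks the E2F-type share of the members was 42.2%.

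The summits lay close upstream of the annotated start. The median distance was -212 bp (quartiles -378 and -114 bp, negative upstream), and 467 members (91.4%) had their summit upstream of the nearest start whose window held it. The largest group, 235 members (46.0%), lay more than 100 and up to 300 bp upstream, among them cdc-48.1, nasp-2, pcn-1 and mcm-2. Another 66 (12.9%) lay within 100 bp upstream, such as isw-1 (-76 bp) and rpn-11 (-30 bp). More than 300 and up to 500 bp upstream there were 83 (16.2%), and farther upstream another 83, with cgh-1 (-767 bp) and hcp-3 (-653 bp) the strongest of these. Downstream of the start there were 44 (8.61%), of which skpt-1 was the strongest. By annotation 425 summits (83.2%) lay upstream of the gene altogether, 61 (11.9%) in introns, 21 (4.11%) in untranslated parts of exons and 4 (0.783%) in coding exons. The 4 in coding exons were both unc-119 peaks, daf-15 (43.7) and enol-1, enolase (32.7). E2F-type letters were about equally frequent at all distances, from 38.6% to 44.3% of the members in each of these 5 distance groups.

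**Figure D2:**
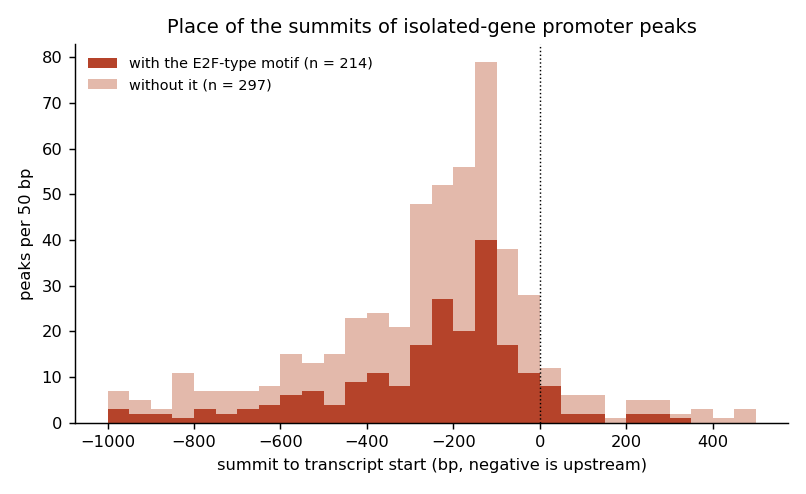
Number of isolated-gene promoter peaks per 50 bp of distance from summit to transcript start (x, bp, negative is upstream), stacked with the 214 peaks that had an E2F-type match below and the 297 without one above. Both parts are highest between 100 and 300 bp upstream, and 44 peaks lie downstream of the start.

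Isolated genes were defined by what follows them, and many were preceded by a gene on their strand. Of the 500 member genes, 138 (27.6%) started within 500 bp of the end of a protein-coding gene on the same strand, against 2674 of all 16369 isolated genes (16.3%). Member peaks could not lie in the windows of several genes, whereas the 16.3% covers all isolated genes without that condition. These shares are therefore not on the same footing, and the part of that rule in their difference was not tested. Counted over member peaks, the share that followed a same-strand gene was 27.6% at 500 bp, 6.68% at 200 bp and 43.8% at 1000 bp. The share of all isolated genes is given at 500 bp only, so a contrast at the other limits is not shown. Such genes could be last in an operon, which the annotation used here does not state. Their 141 peaks had a median signal of 43.8, against 42.4 for the 370 peaks of genes with no such neighbour. Their summits were nearer to the start, at a median of -141 bp, against -251 bp. The space upstream of these genes is short by definition. E2F-type letters were found at 60 of the 141 (42.6%), against 154 of the 370 (41.6%). The upstream gene also had a peak in its own window in 29 of the 141 cases (20.6%). Of all 19973 protein-coding genes, 1830 had a nuclear peak in a window. The share among upstream neighbours of isolated genes in general is not given here, so the 20.6% is a description. Examples among the strongest members were hcp-1, whose upstream neighbour ended 450 bp away, fbxl-2 (239 bp) and rpn-11 (225 bp). More member genes had several annotated starts (225 genes, 45%) than isolated genes in general (27.1%), and a gene with several starts has more windows in which a summit can fall.

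The E2F-type letters were common under the members and centred on the summit. They were found within 100 bp of 214 of the 511 summits (41.9%, interval 37.6 to 46.3%), against 37.3% of all nuclear peaks. With a further T required in front, the members' share was 26%. The share was 36.7% (80 of 218) at genes heading a run, 35.9% (200 of 557) in windows of several genes and 30.9% (73 of 236) outside promoters. The intervals of members and of the other promoter classes overlap, which does not settle whether the shares differ, and a difference was not tested. The contrast with weak peaks was larger. Of the 7548 peaks of the pooled list in the same kind of promoter window that fell below the authors' threshold, 9.22% had the letters. Among windows of 201 bp centred 212 bp upstream of all 19973 nuclear protein-coding genes, 7.14% had them. The reversed letters, a control for base composition, were at 14.3% of members and 3.99% of the peaks below the threshold, so the control also differed between these sets. They can share bases with an E2F-type match, as in the printed hcp-3 site, so they are not a control for base composition alone.

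The match nearest the summit was centred within 25 bp of it in 111 members (51.9% of the 214) and within 50 bp in 191 (89.3%), with a median distance of 24.5 bp. Bins of 20 bp at the summit held 10.2 matches per 100 members, against 1.5 per 100 peaks below the threshold. Bins 100 bp away held 0.587 on either side. The reversed letters were centred on the members' summits too, at a lower level, with 3.72 matches per 100 members in the bin at the summit. Their bins 100 bp upstream and downstream held 0.196 and 0.391, and their bin at the summit held 0.464 below the threshold. Because reversed letters can share bases with E2F-type matches, this does not settle whether centring was particular to the E2F-type letters. The overlap was not counted. The match read on the strand of the gene in 100 members and on the opposite strand in 114, so neither orientation dominated. Of the 4 forms, TTCGCGC was at 82 members (16.0%) and 1.79% of the peaks below the threshold, TTCCCGC at 71 (13.9% and 3.96%), TTGGCGC at 57 (11.2% and 2.04%) and TTGCCGC at 35 (6.85% and 2.34%). The order of the forms thus differed, with TTCGCGC first among members and TTCCCGC first below the threshold. More than 1 match was found at 44 members (8.61%), against 7.69% of all nuclear peaks, and 8 had 3. These 8 were nasp-2 (270.5), E02C12.12 (215), pygl-1, glycogen phosphorylase (158), gln-5, a glutamine synthetase (121), Y110A7A.15 (117), eif-2A (66.7), F26H9.5 (44.6) and Y43F8C.9 (25).

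CHR-type letters were widespread at promoters in general. They were found at 330 members (64.6%, interval 60.3 to 68.7%), against 65.0% of all nuclear peaks, 55.3% of the peaks below the threshold and 57.5% of all promoter windows. Their reversed letters were at 29.5% of members and 35.8% of the peaks below the threshold. They were also more frequent around the summit than below the threshold, with 15.3 matches per 100 members in the bin 40 bp upstream and 12.3 in the bin 20 bp downstream (in the direction of the gene). The bin at the summit itself held 5.28, as few as the bin 180 bp downstream. Below the threshold the bins 40 bp upstream, 20 bp downstream and at the summit held 8.41, 8.81 and 8.85 per 100 peaks. Both kinds of letters were at 149 members (29.2%), against 26.7% of all nuclear peaks and 4.82% of the peaks below the threshold, and 116 members (22.7%) had neither, against 24.5% of all nuclear peaks.

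Where both kinds stood within 30 bases of each other, 3 spacings in 1 order were the most frequent. Read in the direction in which the E2F-type letters begin with TT, the CHR-type match came before the E2F-type match in 77 members (15.1%) and after it in 40 (7.83%), against 1.89% and 1.31% of the peaks below the threshold. Before it, there were 12 members at 0 bases between the matches, 19 at 1 base and 18 at 9 bases. No other spacing on either side held more than 7 members. Together these 3 spacings held 47 members (9.20%), against 75 of the 7548 peaks below the threshold (0.994%). They thus held 47 of the 77 members with the CHR-type match before, so the order was not a trait apart from these spacings. More members had both kinds of letters near the summit at all, with 149 of 511 against 364 of 7548. Set against these totals, adjoining matches were at 12 members and 30 peaks below the threshold, 1 base at 19 and 39, and 9 bases at 18 and 12. Of these 3 spacings, only that of 9 bases was therefore much more frequent among members per peak with both kinds. Shares over all nuclear peaks are not given for the spacings. The spacing of 9 bases held 3.52% of members and 0.159% of the peaks below the threshold, the spacing of 1 base 3.72% and 0.517%, and adjoining matches 2.35% and 0.397%. As the spacings were picked from these values, they are a description.

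Members with both kinds of letters had a median signal of 56.8. Of these 149, 107 (71.8%) were among the strongest peaks of both replicates, as were 300 of all 511 members (58.7%). Genes with the spacing of 9 bases had a median signal of 73.2, and 12 of the 18 were among the strongest of both. They included hcp-1 (263), mcm-2 (219), E02C12.12 (215), rpn-11 (177), the nucleoporin gene npp-22 (97.4), the alanyl-tRNA synthetase gene aars-2 (82.2), the cohesin loader gene scc-2 (82.1), the proteasome gene pas-5 (65.0) and let-418, a Mi-2 chromatin remodeller (26.8). Genes with the spacing of 1 base had a median signal of 43.0, and 8 of 19 were among the strongest of both. Those with adjoining matches had a median of 44.7, with 8 of 12 among the strongest of both. Genes with the spacing of 1 base included the isocitrate dehydrogenase gene idh-1 (109), the SUMO-conjugating enzyme gene ubc-9 (95.6), cyk-7 (76.8) and tyms-1 (32.5). Y43F8C.9 had both spacings. The genes at these spacings belonged to many pathways rather than to 1.

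**Figure D3:**
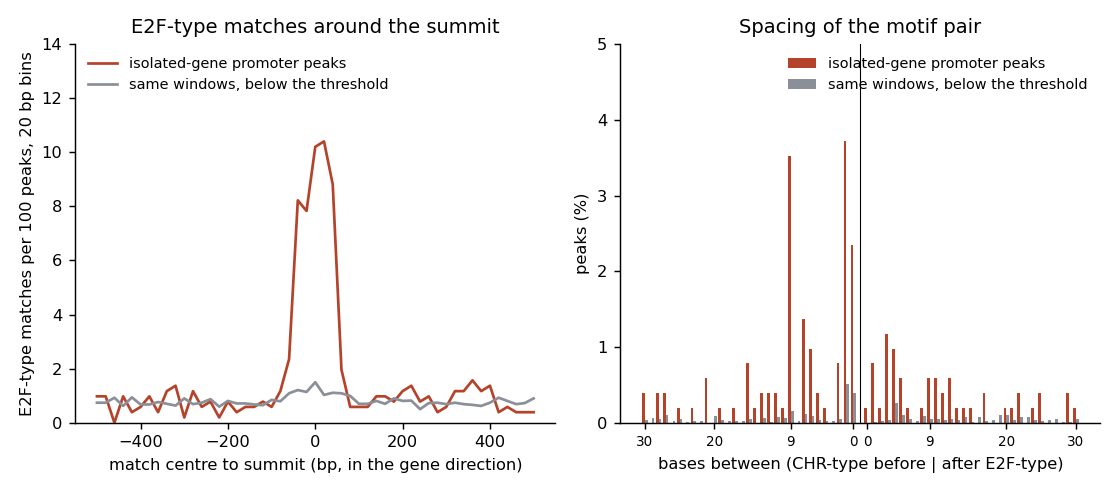
Left, E2F-type matches per 100 peaks in 20 bp bins (y) by distance of the match from the summit (x, bp, in the gene direction), for isolated-gene promoter peaks (red) and peaks below the authors' threshold in the same windows (grey). Right, percent of peaks (y) by the number of bases between a CHR-type and an E2F-type match (x, CHR-type before on the left and after on the right). The red line reaches 10.2 at the summit while the grey line reaches 1.5, and the red bars are highest at 1, 9 and 0 bases before.

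Stronger members had the E2F-type letters more often. They were at 58.6% of the 128 members of highest signal (interval 49.6 to 67.2%), 49.2% of the next 128, 32.0% of the third group of 128 and 27.6% of the 127 weakest. The reversed letters were at 20.3%, 14.8%, 11.7% and 10.2% of the same groups, so they declined in a like proportion from a lower level. How many of these shared bases with an E2F-type match was not counted. CHR-type letters were at 71.1%, 79.7%, 53.9% and 53.5%. The median signal was 56.2 in the 214 members with E2F-type letters and 36.4 in the 297 without. Both replicates had this order, with median ranks of 581.0 in replicate 1 and 512.0 in replicate 2 with the letters, against 893.0 and 882.0 without them. Members among the strongest of both replicates made up 68.7% of those with the letters and 51.5% of those without. For members with both kinds of letters this share was 71.8%, and for those with neither it was 36.2%.

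**Figure D4:**
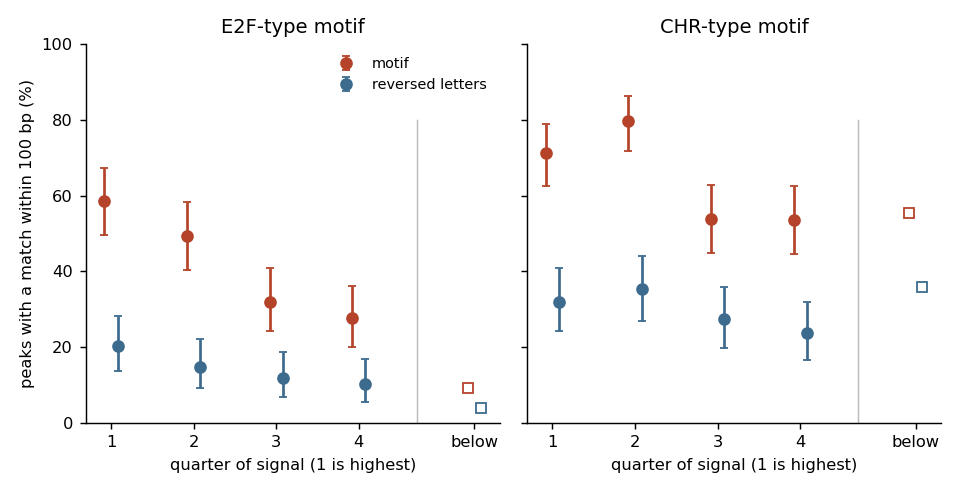
Percent of isolated-gene promoter peaks with a match within 100 bp of the summit (y) in 4 groups of decreasing signal and in peaks below the authors' threshold in the same windows (x), for the E2F-type letters (left panel) and the CHR-type letters (right panel), with reversed letters in blue and exact 95% intervals. The E2F-type share is 58.6% in the first group, 27.6% in the fourth and 9.22% below the threshold.

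Members were found on all 6 nuclear chromosomes, with few and weak ones on X. On X, 25 of 2462 isolated genes had a member peak (1.02%), against 475 of 13907 on the autosomes (3.42%) and 3.05% of all 16369 isolated genes. The autosomes ranged from 2.16% on V and 3.10% on IV to 4.10% on II, 4.24% on I and 4.51% on III. No X member had a signal above 42.8, and the strongest ranked 733 among nuclear peaks. The X members had a median signal of 27.0, against 44.2 on the autosomes, and 18 of the 25 were matched in both replicates, against 445 of the 486 on the autosomes. Nuclear peaks of all classes were few on X, with 53 of 1522, and members made up 47.2% of them, against 33.1% of the 1469 autosomal peaks. E2F-type letters were at 13 of the 25 (52.0%), against 201 of 486 autosomal members (41.4%). The germ line, in which the pie-1 promoter is active, is known to use few genes on X, and expression was not measured here.

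The X genes of highest signal were the kinesin gene klp-13 and K10B3.5 (42.8 each), followed by F16B12.6 and got-2.2 (37.3 each), the 14-3-3 gene ftt-2 (36.4) and F31F6.3 (35.1). Next came lin-15B, a synMuv B repressor (34.7), mrp-4 (34.3), serp-1.1 (34.2), pkhm-2 (33.0) and the PUF RNA-binding gene puf-9 (32.7). The lower members, from 28.2 down to 23.9, were chtl-1, C16H3.3, sec-3, pdi-6, C05G5.2, C01C4.3, the germ granule gene meg-1, F46H5.3, dpy-23, C07D8.6, stn-2, C14A11.9, sym-3 and eor-2. Of these 14, sec-3, pdi-6, C05G5.2, C01C4.3, meg-1, dpy-23 and C14A11.9 had no match in replicate 1. These 7 thus rested on replicate 2 and the pooled reads.

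The gene lists used next were chosen with earlier results of these data known, and each count is of genes with a member peak among the list's isolated genes, against 3.05% for all isolated genes. Oocyte and maternal genes had 20 of 69 (29.0%), with E2F-type letters at 14 and 19 among the strongest of both replicates. Of all 500 member genes, 213 had the letters and 295 were among the strongest of both. The counts of this list include pie-1 (157), whose promoter the transgene carries. Besides cgh-1, cpg-1 and rme-2 the list held a set of eggshell and egg activation genes. These were cpg-2, a second eggshell proteoglycan (164), egg-1, an oocyte surface receptor needed for sperm entry (161), the nearly identical pseudophosphatase genes egg-4 and egg-5 (134 and 92.4) and their partner egg-3 (92.2). The chitin synthase gene chs-1 had 126 and the chitin-binding gene cbd-1 85.9. The PUF gene puf-11 (131), the Notch receptor glp-1 (56.2) and gld-2, a cytoplasmic poly(A) polymerase (53.6), were further members of the list.

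DNA replication genes had 11 of 39 (28.2%), with E2F-type letters at 8. After pcn-1 and mcm-2 came mcm-5 (115) and pole-1, the catalytic subunit of DNA polymerase epsilon (109). Lower members were the flap nuclease gene crn-1 (105), rnr-1, the large subunit of ribonucleotide reductase (69.6), geminin (gmn-1, 67.0) and orc-3 (35.2). Cell cycle and mitosis genes had 14 of 85 (16.5%), with E2F-type letters at 8. After hcp-1 and hcp-3 these were led by the Polo kinase gene plk-1 (156) and wee-1.3, a kinase that holds oocytes before division (149.9). Of the DREAM genes 2 of 6 isolated ones had a member peak, lin-9 and dpl-1, and 6 of the 8 listed genes had a peak of some class in a window. Over all 19973 protein-coding genes, 1830 had such a peak. The dpl-1 peak is among those with a direct link to the transgene.

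Chromatin and synMuv genes had 17 of 65 (26.2%), with E2F-type letters at 9. After nasp-2 and isw-1 they were led by unc-85, an ASF1 histone chaperone (112), and mys-1, an acetyltransferase (101). Histones had 4 of 53 (7.55%), namely the variant genes hcp-3 and cpar-1 (50.8), the linker histone hil-4 (72.7) and his-37 (42.4). DNA repair and checkpoint genes had 6 of 53 (11.3%), none of them with E2F-type letters, led by smc-5 (94.7), brc-1 (64.7), mrt-2 (46.1) and the nuclease gene fan-1 (43.8). Meiosis genes had 5 of 33 (15.2%), led by syp-5 of the synaptonemal complex (156), pch-2 (48.6), zhp-1 (45.2) and dsb-2 (31.5). Small RNA and germ granule genes had 6 of 65 (9.23%), led by tofu-6 (92.2), mip-1 (78.1), the RNA-dependent RNA polymerase gene ego-1 (43.4) and the Argonaute gene alg-2 (39.2). Polarity and cortex genes had 5 of 31 (16.1%), with par-3, lin-5, mrck-1 (48.7) and the septin gene unc-61 (36.5) in front.

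Housekeeping genes follow, with the number that had E2F-type letters, which were at 213 of all 500 member genes. The counts are small, and a difference between lists was not tested. Cytosolic ribosomal protein genes had 13 of 49 (26.5%), and only rps-17 had the letters. They were led by rpl-3, rpl-35, rpl-24.2 (157) and rpl-41.2 (118), and their median was 43.1. Proteasome and ubiquitin genes had 15 of 100 (15%), 9 with the letters, and after cdc-48.1 and rpn-11 came smo-1, which encodes SUMO (114), and the ubiquitin ligase gene eel-1 (103). Nuclear pore and transport genes had 5 of 32 (15.6%), 4 with the letters: npp-22, npp-8 (97.1), npp-13 (68.4) and npp-23 (65.2). Glycolysis and core metabolism had 5 of 34 (14.7%), 4 with the letters, led by mel-32, serine hydroxymethyltransferase (115), the aldolase gene aldo-2 (103) and metr-1, methionine synthase (56.8). Tubulin, actin and motor genes had 5 of 65 (7.69%), 4 with the letters, led by the kinesin gene klp-7 (149), act-2 (144), klc-1 (51.5) and klp-13.

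Mitochondrial respiration and import had 7 of 76 (9.21%), 2 with the letters, led by cox-5A, tomm-20, cox-5B (155) and the prohibitin gene phb-2 (73.2), and mitochondrial ribosomal proteins had 5 of 42 (11.9%), 3 with the letters, led by mrpl-55 (95.8), mrpl-28 (71.1), mrps-16 (65.5) and mrpl-15 (65.2). Chaperones had 7 of 55 (12.7%), 2 with the letters, led by cyn-1 (74.2), cyn-10 (59.6), the myosin chaperone gene unc-45 (58.3) and dnj-10 (40.7). Secretion and vesicle transport had 11 of 127 (8.66%), 6 with the letters, led by vps-60 (63.3), the calreticulin gene crt-1 (44.9), sel-9 (42.4) and vha-16 (38.9). Splicing and RNA processing had 6 of 71 (8.45%), 2 with the letters, led by exos-2, lsm-5 (47.8), mog-4 (39.5) and cpsf-1 (36.9). The transcription machinery had 5 of 78 (6.41%), 1 with the letters, led by pafo-1 (167), the Integrator gene ints-4 (133), cdc-73 (73.9) and ama-1, the largest subunit of RNA polymerase II (32.4). Translation factors and tRNA synthetases had 3 of 49 (6.12%), 2 with the letters, which were aars-2, eif-2A and tufm-1 (31.1). In each of the lists so far the share was above the 3.05% of all isolated genes, but the interval reached below it for tubulin, actin and motors (2.54%), the transcription machinery (2.11%), histones (2.09%) and translation factors (1.28%).

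Lists of genes typical of differentiated somatic tissues and of sperm had few or no members. Cuticle collagens had 1 of 154 (0.649%), col-85 (29.9), with its summit in an intron and a tRNA gene near. The neuron list had 1 of 185 (0.541%), which was unc-119, the transgene's rescue gene. The intestine list had 2 of 256 (0.781%), the C-type lectin genes clec-91 (65.3) and clec-126 (31.9). Homeobox genes had 1 of 86 (1.16%), the caudal-type gene pal-1 (35.7), known for its maternal RNA. The sperm list had 0 of 110, the muscle list 0 of 33 and nuclear hormone receptors 0 of 228. For these 3 the exact intervals reached up to 3.30%, 10.6% and 1.60%. The intervals of the receptor, neuron (up to 2.97%) and intestine (up to 2.79%) lists ended below the share of all isolated genes, and those of the collagen (3.56%), homeobox (6.31%), sperm and muscle lists did not. In all, 322 of the 500 member genes (64.4%) were in none of the lists.

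**Figure D5:**
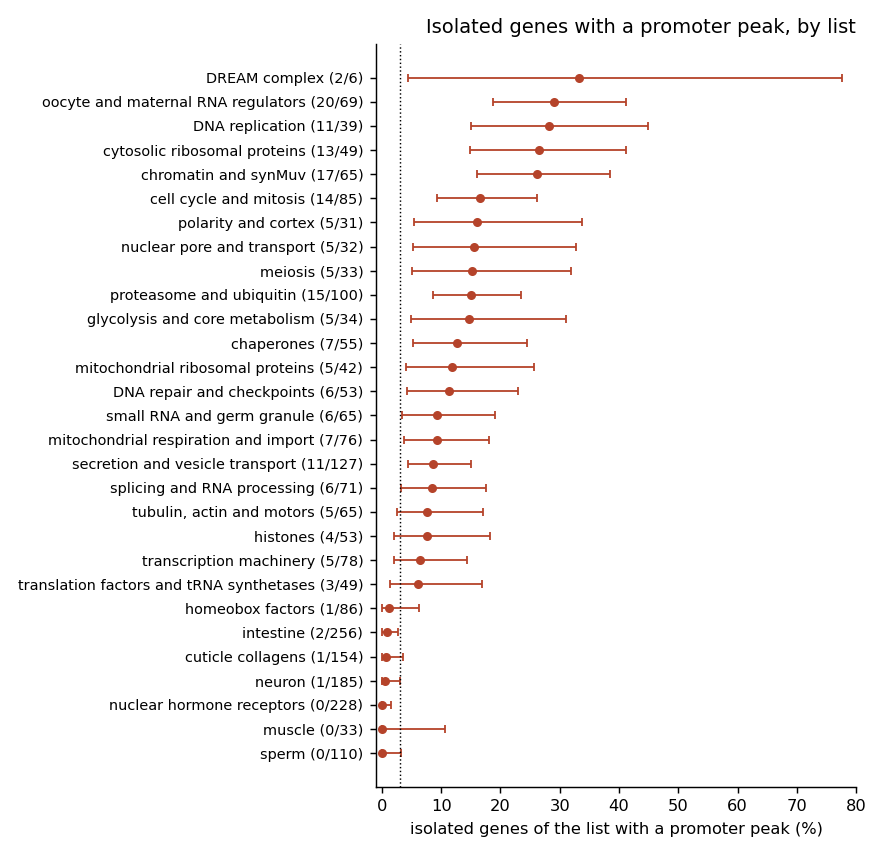
Percent of the isolated genes of each list that had a DPL-1 promoter peak (x), with exact 95% intervals, one list per line from the highest share at the top. Numbers in brackets are genes with a peak and isolated genes in the list, and the dotted line marks 3.05%, the share of all isolated genes.

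Several genes held more than 1 member peak. The ubiquitin ligase gene eel-1 held 3 within its upstream region, at -356, -576 and -814 bp from the start, with signals of 103, 72.2 and 68.2 and no E2F-type letters under any. The genes hrpk-1 (86.6 and 31.2), hrpu-1 (67.4 and 27.1), rnr-1 (69.6 and 47.7), T02E1.2 (34.0 and 24.1), Y55F3BR.6 (35.0 and 31.6) and Y65A5A.2 (72.9 and 41.6) held 2 each, beside pie-1 and unc-119. At rnr-1 both peaks had E2F-type letters, the stronger upstream of the gene and the other in an intron. Peaks of 1 gene share that gene, so gene counts above take each gene once.

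Genes for tRNAs and snoRNAs lay near few members. A tRNA gene was within 250 bp of 10 members (1.96%, interval 0.942 to 3.57%), against 3.35% of all nuclear peaks and 36 of the 236 peaks outside promoters (15.3%). All 10 had signals under 37, the highest being nfm-1 (36.9), Y55F3BR.6 (35.0) and srh-269 (32.2). A snoRNA gene was near 11 members (2.15%), against 2.96% of all nuclear peaks, the highest being pcyt-2.1 (52.0) and zen-4, a kinesin of the central spindle (50.6). At these peaks the summit cannot be assigned to the protein-coding gene rather than to the small RNA gene.

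The limit of 500 bp that separates isolated genes from genes heading a run falls in a continuous range. Just inside it were W03H9.2, whose next gene cacn-1 starts 501 bp away (signal 25.1), Y75B8A.7 (503 bp, 42.6) and K05C4.4 (507 bp, 97.5). Just outside were T26E3.4, followed by par-6 at 487 bp (100), R148.4 (486 bp, 42.8) and F43G6.10 (483 bp, 26.6). Signals on the 2 sides overlapped.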

How the data were processed

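Chromatin immunoprecipitation and sequencing of tagged DPL-1 had been run in 2 biological replicates. Per the deposited description files, the authors called peaks for each replicate against a control, for both pooled, and then filtered by the irreproducible discovery rate (IDR). Which aligner and which caller they ran is not given in the sources used here. The signal value of each peak was taken from the authors' deposited ce11 lists (30000 peaks for each replicate and for the pool) and used only for ranks and descriptions within a list. The ce10 lists, the control and the reads were not used here. Depth is unknown, and no p-values were computed.

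Summits were assigned to windows of 29784 transcript starts of 19973 nuclear protein-coding genes (Ensembl 115, WBcel235), with Python 3.11.15, NumPy 2.4.6 and SciPy 1.17.1. Distances run to the nearest start whose window holds the summit. No sequence of chromosome I was printed. The sequence of 1 further site is not reported here. The scripts were tested on simulated peaks. The members and gene lists were chosen with earlier results of these data known. The genes named were those of the 25 strongest members, up to 4 of highest signal per list, all on X, the DREAM and transgene genes, those with several peaks, the 5 most uneven and 5 weakest, and 3 on each side of the 500 bp limit. Other names (further members of the replication and oocyte lists, genes missing in a replicate, with repeated matches, at set motif spacings, in coding exons or near small RNA genes) were chosen after their values were seen. Alternatives tried were other windows, isolation distances, peak thresholds, peak midpoints, match distances, motif letters and reaches, single replicates and, added after seeing the data, leaving out the peaks of dpl-1, pie-1 and unc-119.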

Additional observations from a re-analysis of the deposited data

How the results depend on the processing

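Over 10 results and 15 settings, 63 of 98 alternatives stayed within the tolerance set for them, and 35 moved further. Causes were not tested. The tolerance was 1.5 times for a count and the exact interval for a share. For a median or correlation it was the standard deviation of the 2 values from single-replicate lists. For the median distance those values were -211 and -213 bp, so shifts of a few bp counted as moved. With a narrow window (500 bp upstream, 250 bp downstream), 64.8% of members were among the strongest of both replicates, the median place in the signal order was 43.8% of the list (48.2% as reported), rho was 0.605 and the median distance -176 bp. With a wide one (2000 and 1000 bp) these medians were 52.8% and -234 bp, and rho was 0.544. Isolation distances of 200 and 1000 bp, and peak midpoints, each gave a median distance of -208 bp, and genes following a neighbour were 6.68% at 200 bp and 43.8% at 1000 bp, since that limit also defines them. Peaks above the median signal of the optimal list left 261 members, 2 of them on X, with 96.2% matched in both replicates, 88.9% among the strongest of both, a median place of 46.3%, rho 0.553, a median distance of -191 bp, E2F-type letters at 54.0% and CHR-type letters at 75.5%. Matching within 50 bp gave 76.1% in both, 52.8% among the strongest and rho 0.604, and within 250 bp 96.3% in both. Letters within 50 bp of the summit were at 37.4% (E2F-type) and 44.6% (CHR-type), and CHR-type letters within 250 bp were at 89.8%. Stricter E2F-type letters (a further T in front) were at 26%, and TTTGAA alone at 55.8%. With the list of either replicate alone, members numbered 484 to 517, 80.2 to 80.7% were matched in both, the median place was 45.9 to 47.4% and rho was 0.677 to 0.706. In that setting each peak matches its own replicate by definition. No paired analysis was possible because there was only 1 group. Depth is unknown, so a gene without a peak cannot be called unbound, and peak signals carry no counting error.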
